A study of Mus musculus with 8 samples.

Results

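The type I hair shaft keratins measured here were Krt31, Krt32, Krt33a, Krt33b, Krt34, Krt35, Krt36, Krt39 and Krt40. They were taken by gene symbol, as 9 of the 32693 genes listed in at least one of the authors' tables, and all 9 were listed in both tables. RNA came from hair matrix keratinocytes, the proliferating epithelium of the hair bulb, sorted from mouse skin at postnatal day 4.5. The 4 groups were untreated wild type (WT), untreated Tet2/Tet3 double knockout (DKO) carrying Krt14-Cre, and each of these genotypes after a subcutaneous dose of 50 µg 5-aza on postnatal day 2.5. The labels call WT only wild type and do not say whether it carried floxed alleles or Cre. Tet2 and Tet3 encode enzymes that oxidise 5-methylcytosine, Krt14-Cre is driven by a promoter of basal keratinocytes, and 5-aza inhibits DNA methyltransferases. Each group had 2 libraries, and nothing says that these came from separate animals, so every p-value below measures only the spread between these libraries.

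Hair shaft keratins are the cysteine-rich intermediate filament proteins of hair and nail. A type I (acidic) chain pairs with a type II (basic) chain, and the filaments are then embedded in a matrix of keratin-associated proteins. In human hair, KRT35 appears early, in the matrix and lower shaft, KRT31, KRT33A, KRT33B and KRT34 are keratins of the cortex, and KRT32 and KRT40 are keratins of the cuticle. The differentiating cells leave the matrix to form the shaft or the surrounding inner root sheath, which has type I and type II keratins of its own.

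All 9 genes lie on the minus strand of mouse chromosome 11 and are annotated as protein-coding (GRCm38, coordinates equal to GENCODE M21). Krt33a (chr11:100011195-100016212), Krt33b (chr11:100023634-100029868), Krt34 (chr11:100037347-100041554) and Krt31 (chr11:100046646-100050551) follow each other in this order. Krt32 (chr11:100080848-100088226), Krt35 (chr11:100092193-100096241) and Krt36 (chr11:100102007-100105626) come next. Krt39 (chr11:99514114-99521338) and Krt40 (chr11:99537485-99543158) stand apart, on the other side of Krt33a. Krt32 overlaps the antisense gene Gm11571, and the strand setting of the counting is not given in the sources used here, so reads of the overlap cannot be assigned to one of them. The exons of Krt34, Krt31, Krt33a and Krt33b shared 24.7%, 19.1%, 11.7% and 11.02% of their stretches of 75 bases with other members of the set. The share was 1.18% in Krt35 and 0 in the other 4. Reads of the shared stretches could have been split or dropped in the counting, so the level of each of these genes is uncertain. The part of such reads in the common pattern of these genes was not tested.

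The sequences of 250 bases before the start of transcription are shown for 5 of the genes. In untreated cells 4 of them had both DKO libraries above both WT libraries, where 24.3% of the 17448 genes tested had. The fifth, Krt36, overlapped. Krt39 and Krt40 also lay above without overlap, on at most 18 reads in a library, and their sequences are not shown. All were taken from RefSeq sequences of GRCm38.p6, which matched 7 of the 9 symbols (not Krt33a and Krt35), written 5′ to 3′ on the strand of the gene. Capitals mark matches to 3 heptamers, the first being CTTTGAA, the next being AGTCCTG and the last being TTTTATG, and to a TATA box written as TATAAA or else as TATATAA, all searched on both strands. These motifs were chosen after looking at the sequences of the set. The regions are chr11:100029869-100030118 (Krt33b), chr11:100041555-100041804 (Krt34), chr11:100050552-100050801 (Krt31), chr11:100088270-100088519 (Krt32) and chr11:100105627-100105876 (Krt36), each on the minus strand.
Krt33b: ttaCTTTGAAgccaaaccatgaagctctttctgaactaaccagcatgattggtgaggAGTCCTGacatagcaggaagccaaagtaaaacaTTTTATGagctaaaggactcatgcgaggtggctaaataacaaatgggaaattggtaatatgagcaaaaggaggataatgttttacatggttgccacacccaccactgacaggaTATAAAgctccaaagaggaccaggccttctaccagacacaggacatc
Krt34: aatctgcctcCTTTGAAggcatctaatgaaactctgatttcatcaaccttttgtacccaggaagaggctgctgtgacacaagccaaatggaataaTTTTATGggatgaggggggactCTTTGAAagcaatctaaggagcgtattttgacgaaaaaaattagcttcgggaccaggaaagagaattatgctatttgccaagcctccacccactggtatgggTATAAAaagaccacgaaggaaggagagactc
Krt31: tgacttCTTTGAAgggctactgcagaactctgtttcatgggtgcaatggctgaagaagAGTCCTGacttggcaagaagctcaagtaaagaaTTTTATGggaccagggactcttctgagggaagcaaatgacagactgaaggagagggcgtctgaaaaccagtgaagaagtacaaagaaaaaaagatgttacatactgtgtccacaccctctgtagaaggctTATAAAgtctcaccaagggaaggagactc
Krt32: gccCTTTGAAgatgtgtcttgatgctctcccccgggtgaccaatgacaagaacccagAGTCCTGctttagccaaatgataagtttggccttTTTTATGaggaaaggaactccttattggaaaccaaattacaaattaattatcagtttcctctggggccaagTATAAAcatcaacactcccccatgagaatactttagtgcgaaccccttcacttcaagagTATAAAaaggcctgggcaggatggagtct
Krt36: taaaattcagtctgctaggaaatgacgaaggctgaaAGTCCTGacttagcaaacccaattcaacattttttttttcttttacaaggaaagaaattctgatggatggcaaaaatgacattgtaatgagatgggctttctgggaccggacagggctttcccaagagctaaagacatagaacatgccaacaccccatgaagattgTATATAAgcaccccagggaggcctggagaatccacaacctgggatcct

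CTTTGAA was found in 5 of the 7 sequences, against 4.46% of 32851 promoters of the same length. AGTCCTG was found in 5 of 7, against 4.75%, and TTTTATG in 6 of 7, against 3.77%. Either form of the TATA box stood in all 7, against 13.8%. CTTTGAA occurred together with TTTTATG in Krt31, Krt32, Krt33b, Krt34 and Krt39, and in 0.292% of all promoters. In Krt33b, Krt31 and Krt32 the motifs kept almost the same distances: CTTTGAA began 247, 244 and 247 bases before the start, AGTCCTG 193, 192 and 193, and TTTTATG 160, 159 and 159. Krt34 had CTTTGAA at 240 and again at 133 bases and TTTTATG at 155 bases, and no AGTCCTG. Krt36 had AGTCCTG at 214 bases and TATATAA at 48 bases, and neither of the other 2 heptamers. Krt39 had CTTTGAA on the opposite strand at 19 bases, TTTTATG at 145 bases and no AGTCCTG. Krt40 had AGTCCTG at 185 bases, TTTTATG on the opposite strand at 143 bases and no CTTTGAA. The 3 heptamers overlapped each other nowhere in these sequences. These matches describe letters within the window and are not measured sites. A link between them and the levels of the genes was not tested. Because the motifs were chosen from these sequences, high counts in them were fixed in advance. The shares over all promoters are therefore a description and no test of enrichment. CpG dinucleotides were few: 1 in Krt31 and in Krt33b, 2 in Krt32 and in Krt36, 3 in Krt40 and 4 in Krt34, against a median of 6 over all promoters, while Krt39 had 8.

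The untreated libraries held 19528602 to 22837436 reads in total and the 5-aza libraries 39493929 to 58353167, of which listed genes held 55.8% to 62.0% and 38.4% to 42.4%. Summed reads of the 9 keratins ranged from 1721 to 9886 per untreated library and from 4591 to 14564 per 5-aza library. Levels are FPKM (fragments scaled to gene length and library total), and the 2 tables were made differently, so WT and DKO are compared only within a table. All 10 genes of a list of matrix markers were detected in every group, with summed levels of 234.1 and 311.9 FPKM in untreated WT and 293.9 and 325.8 in untreated DKO. Markers of other cells were present too, with fibroblast sums of 474.3 to 1370 FPKM over the untreated libraries and 68.5 to 145 FPKM after 5-aza. Tet3 was 11.8 and 11.4 FPKM in untreated WT and 6.92 and 7.31 in untreated DKO, and 10.4 and 11.5 against 6.54 and 5.99 after 5-aza. Tet2 was 3.23 and 3.28 FPKM against 2.72 and 2.55 in untreated cells and 1.81 and 2.00 against 1.58 and 1.56 after 5-aza, and whole-gene values do not check a deletion of some exons. In both untreated genotypes replicate 1 was high in Xist (82.1 and 74.4 FPKM) and replicate 2 in the Y-linked Ddx3y (3.50 and 2.90 FPKM), whereas every 5-aza library held both, with Xist at 16.9 and 23.1 FPKM in WT and 4.60 and 3.65 FPKM in DKO. The part of this difference in the 5-aza results was not tested.

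The first comparison asked how the shaft keratins differed between untreated DKO and WT cells. The 4 neighbouring cortex keratins had the highest ratios: mean FPKM in DKO was 11.7-fold that in WT for Krt34, 9.20-fold for Krt33b, 8.66-fold for Krt33a and 8.22-fold for Krt31. Krt35 was 2.90-fold and Krt32 2.79-fold higher, and Krt36 did not separate. None of the 8 keratins tested passed the threshold over all genes (limma, adjusted p under 0.05), where 1 of 17448 genes (0.00573%) did, a lower one. At an unadjusted p under 0.05, 7 of the 8 were higher, against 6.82% of all genes. In bulk RNA of sorted cells, more cells that make shaft keratins and more RNA in each cell cannot be told apart.

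Krt34 (ENSMUSG00000043485), a cortex keratin, was 1.12 and 1.70 FPKM in the WT libraries and 13.1 and 19.8 FPKM in the DKO libraries, from 41 and 62 reads against 465 and 619. The lower DKO library was 7.69-fold above the higher WT library. Its log2 difference, of log2(FPKM + 1) as in every limma value here, was 2.84 ± 0.23 (SE; adjusted p = 0.0868, n = 2 libraries per group).

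Krt33b (ENSMUSG00000057723) was 2.25 and 4.41 FPKM in WT and 26.2 and 35.0 FPKM in DKO, a log2 difference of 2.90 ± 0.28 (adjusted p = 0.102, limma). Its neighbour Krt33a (ENSMUSG00000035592) was 3.71 and 6.52 FPKM in WT and 36.4 and 52.1 FPKM in DKO, a log2 difference of 2.91 ± 0.29 (adjusted p = 0.105, limma). Both genes encode cortex keratins of the same subgroup, and for each the groups were far apart, with DKO replicate 2 the highest library and WT replicate 1 the lowest.

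Krt31 (ENSMUSG00000048981), at the end of this run of 4 genes, was 4.67 and 6.64 FPKM in WT and 36.6 and 56.4 FPKM in DKO. The means were 5.66 ± 1.39 and 46.5 ± 14.0 FPKM (SD, n = 2). The log2 difference was 2.82 ± 0.26 (adjusted p = 0.0889, limma), and the libraries stood in the same order as for Krt33a and Krt33b.

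Krt35 (ENSMUSG00000048013), which in human hair is made before the other cortex keratins, had the highest level in WT. It was 11.9 and 15.6 FPKM in WT and 31.6 and 48.2 FPKM in DKO, with no overlap and a log2 difference of 1.45 ± 0.25 (adjusted p = 0.188, limma). Krt32 (ENSMUSG00000046095), a cuticle keratin, was low throughout, at 1.24 and 0.878 FPKM in WT against 2.51 and 3.38 FPKM in DKO. Its log2 difference was 0.94 ± 0.16 (adjusted p = 0.186, limma), and the 2 DKO libraries lay above the 2 WT libraries.

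Krt36, Krt39 and Krt40 had few reads in untreated cells, at most 44 in a library. Krt36 (ENSMUSG00000020916) was 0.789 and 0.659 FPKM in WT and 0.731 and 1.35 FPKM in DKO, so the groups overlapped (log2 difference 0.23 ± 0.16, adjusted p = 0.673, limma). Krt39 (ENSMUSG00000064165) had 11 and 7 reads in WT and 18 and 14 in DKO, a log2 difference of 0.15 ± 0.05 (adjusted p = 0.373, limma). Krt40 (ENSMUSG00000059169) had 1 and 0 reads in WT and 2 in each DKO library, did not pass the filter on low reads and was not tested. Counting both DKO libraries against both WT libraries, 8 of the 9 keratins were above and 1, Krt36, overlapped; 24.3% of the 17448 genes tested were above.

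**Figure D1:**
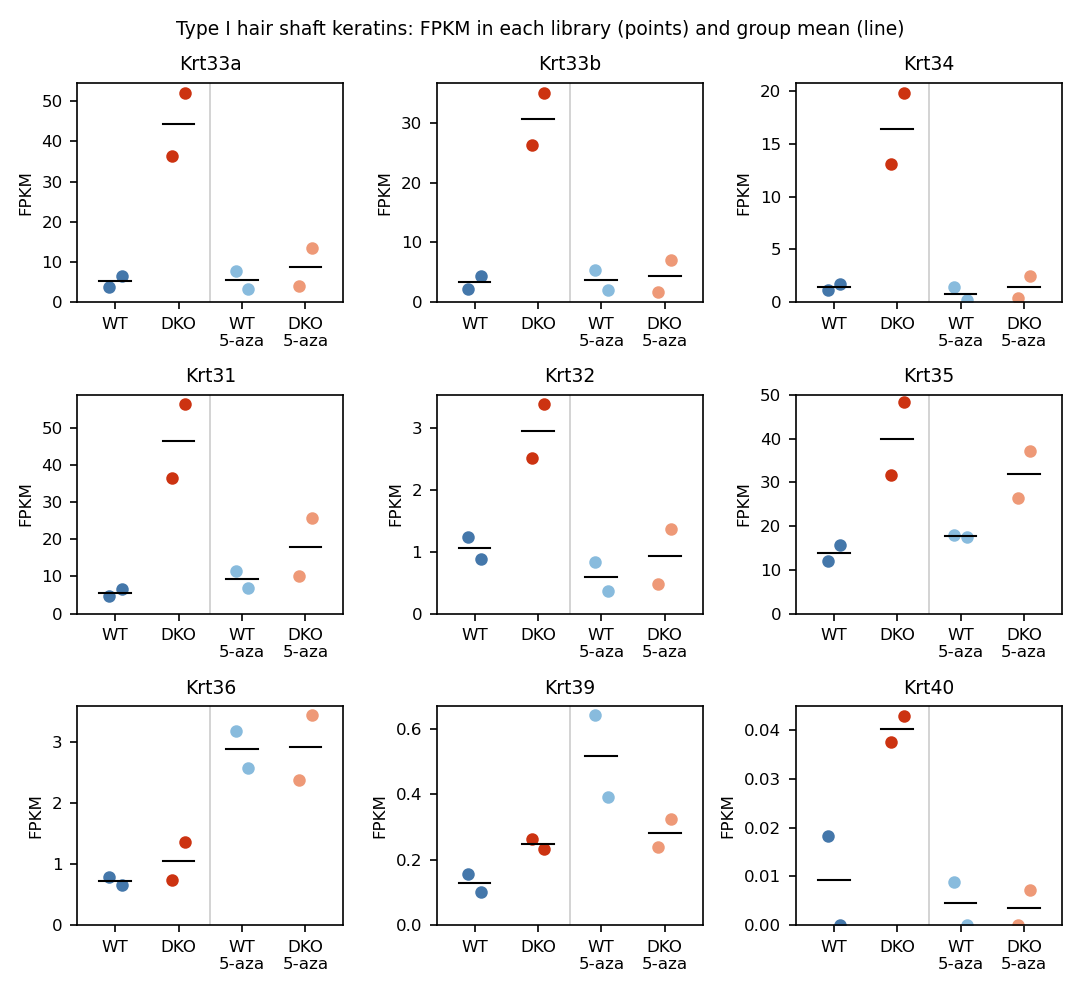
FPKM of each of the 9 keratins (vertical axis, own scale from 0 in each panel) in the 2 libraries of each group (points, replicate 1 left), with the group mean as a line. In the 5 panels of Krt33a, Krt33b, Krt34, Krt31 and Krt35 both untreated DKO libraries lie well above both untreated WT libraries, and after 5-aza this separation is seen for Krt35 alone among them.

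The calls depended on the model. In the authors' deposited table, from their DESeq2 test, 6 of the 9 keratins were called higher in untreated DKO, where 0.793% of listed genes were. The authors' deposited table gives log2 differences of 3.52 for Krt34, 3.18 for Krt33b, 3.10 for Krt33a, 3.02 for Krt31, 1.51 for Krt35 and 1.44 for Krt32, the last with an adjusted p of 0.00615. Voom, a limma fit on the recovered reads that weights genes by depth, called 5 of the 8 tested, Krt31, Krt33a, Krt33b, Krt34 and Krt35 (adjusted p = 0.0037 to 0.0187), where 0.579% of genes were called higher. A limma fit with the replicate number as a block called the 4 cortex neighbours (adjusted p = 0.0328 to 0.0336), where 0.0688% of genes were called higher. Krt36, Krt39 and Krt40 were called by none of these.

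The median log2 difference of the 9 keratins was 1.45 in untreated cells, beside a median of 0.0112 over all genes tested. Summed over the 9 keratins, levels were 25.9 and 36.5 FPKM in untreated WT and 147 and 217 FPKM in untreated DKO, 5.83-fold higher in the mean. The composition of the set differed as well. Krt31, Krt33a, Krt33b and Krt34 together made up 45.4% and 52.7% of the summed FPKM in WT and 76.2% and 75.4% in DKO (a grouping made after their values were seen). Krt35 made up 46.1% and 42.8% in WT and 21.4% and 22.3% in DKO. The share of Krt32 was 4.79% and 2.40% in WT and 1.70% and 1.56% in DKO. With the deposited gene length, both WT libraries thus had Krt35 as the largest single component. Both DKO libraries had Krt31, closely followed by Krt33a (24.8% and 24.7% in replicate 1). Per merged exon length, described below, Krt35 was the largest in both DKO libraries too. It was 54.1 and 82.6 FPKM there, against 36.4 and 56.1 FPKM for Krt31. The shares and the summed levels above thus depend on the gene length used.

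**Figure D2:**
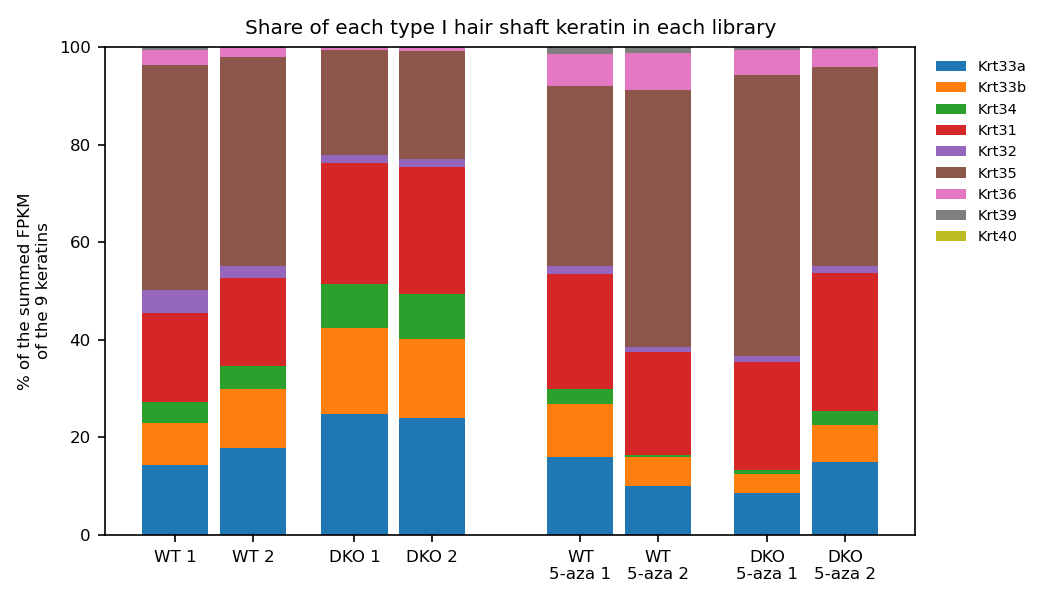
Share of each keratin in the summed FPKM of the 9 keratins (vertical axis, %, deposited gene length) in each of the 8 libraries. Krt35 takes 42.8% to 46.1% in untreated WT and 21.4% to 22.3% in untreated DKO, and the 5-aza libraries range from 36.9% to 57.7% with no separation of the genotypes.

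The order of levels depended on the gene length used. The deposited length equals the exon lengths summed over all transcripts for 97.6% of untreated genes, which counts shared exons more than once and lowers the FPKM of genes with several transcripts. It was 1.71 times the merged exon length for Krt35, 1.54 times for Krt32, 1.88 times for Krt39, 1.81 times for Krt40 and 1.12 times for Krt33a, and close to it for the other 4. With the deposited length the order in untreated DKO was Krt31, Krt33a, Krt35, Krt33b, Krt34, Krt32, Krt36, Krt39 and Krt40. The first 4 of these formed a chain in which each neighbour's range overlapped the next. Per merged exon length Krt35 came first in all 4 groups, at a mean of 23.6 FPKM in untreated WT and 68.4 in untreated DKO, and its range overlapped that of Krt33a (mean 49.7 FPKM) in DKO. Krt34 and Krt32 were not separated from each other in WT with either length. Ratios between genotypes of a single gene do not depend on this choice.

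Cells after 5-aza were compared in the same way, DKO with WT. Krt35 was the only one of the 9 with both DKO libraries above both WT libraries, where 28.1% of 16990 genes were above. It was 17.9 and 17.5 FPKM in WT and 26.5 and 37.1 FPKM in DKO, 1.80-fold higher, with a log2 difference of 0.79 ± 0.17 (unadjusted p = 0.00844, adjusted p = 0.403, limma). No keratin of the set, and no gene at all (0%), passed the threshold over all genes. Voom called none either, 1 of the 8 had an unadjusted p under 0.05, and 6.67% of all genes did so in the higher direction. The authors' deposited table called Krt35 alone of the 9 (log2 difference 0.78, adjusted p = 0.00329), where 0.547% of listed genes were called higher.

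The 4 cortex neighbours overlapped between genotypes after 5-aza, and their replicates lay far apart. Krt31 was 11.4 and 6.98 FPKM in WT and 10.2 and 25.8 FPKM in DKO (log2 difference 0.80 ± 0.48, adjusted p = 0.708, limma). Krt33a was 7.74 and 3.33 FPKM in WT and 3.99 and 13.6 FPKM in DKO (log2 difference 0.47 ± 0.63, adjusted p = 0.876, limma). In both, DKO replicate 2 was the highest library, while DKO replicate 1 stood below WT replicate 1.

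Krt33b repeated this pattern at 5.32 and 1.96 FPKM in WT and 1.71 and 7.03 FPKM in DKO (log2 difference 0.11 ± 0.65, adjusted p = 0.976, limma). Krt34 was 1.42 and 0.191 FPKM in WT and 0.411 and 2.47 FPKM in DKO, so that replicates of one genotype differed 7.42-fold and 6.01-fold. Its log2 difference was 0.38 ± 0.56 (adjusted p = 0.889, limma), smaller than its standard error. Krt32, the cuticle keratin, was 0.824 and 0.362 FPKM in WT and 0.478 and 1.37 FPKM in DKO, again with WT replicate 1 and DKO replicate 2 on the high side.

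Krt36 also had WT replicate 1 above WT replicate 2 and DKO replicate 2 above DKO replicate 1, with smaller steps, at 3.18 and 2.57 FPKM in WT and 2.37 and 3.45 FPKM in DKO (log2 difference 0.00336 with the deposited scaling, -0.0765 when scaled to reads of shared genes and -0.0458 with median-ratio scaling). Krt39 had 93 and 55 reads in WT and 29 and 58 in DKO, or 0.643 and 0.391 against 0.239 and 0.324 FPKM. It was the only one of the 9 with both DKO libraries below both WT libraries, where 11.5% of genes were (log2 difference -0.24 ± 0.10, adjusted p = 0.580, limma). Krt40 had 1 and 0 reads in WT and 0 and 1 in DKO.

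**Figure D3:**
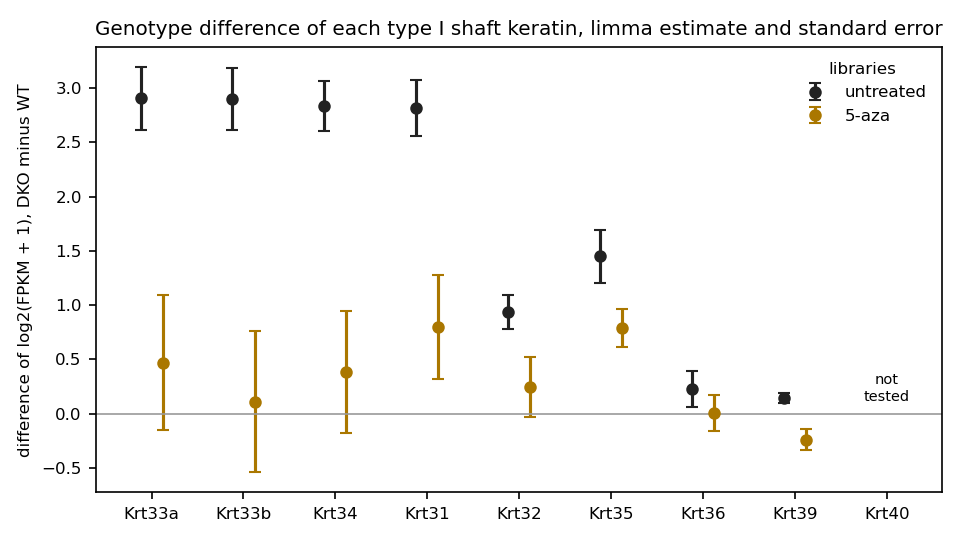
Difference of log2(FPKM + 1), DKO minus WT, for each keratin in the untreated and in the 5-aza libraries (points, limma estimates; bars, standard errors; 2 libraries per group). The untreated values of the 4 cortex neighbours lie between 2.82 and 2.91, their 5-aza values lie between 0.11 and 0.80 with wide bars, and Krt40 was not tested.

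The median log2 difference of the 9 keratins after 5-aza was 0.25, beside 0.0255 over all genes tested, and its sign rested on single libraries. It was -0.036 without WT replicate 2 and -0.20 without DKO replicate 2. The summed level was 48.5 and 33.2 FPKM in WT and 45.9 and 91.1 FPKM in DKO. Over all genes, 1133 were higher and 387 lower at an unadjusted p under 0.05, and 755 and 687 when scaled to reads of genes in both tables. Melanocyte markers moved with the shaft keratins across these libraries. All 8 were detected in each group, and their sum was 97.6 and 22.1 FPKM in WT and 29.4 and 140 FPKM in DKO, high in WT replicate 1 and DKO replicate 2. The 12 dermal papilla markers, all detected, summed to 54.2 and 24.7 FPKM in WT and 18.3 and 37.7 FPKM in DKO. The sum of the matrix markers ran the other way within each genotype, at 314.8 and 339 FPKM in WT and 394.9 and 351.4 FPKM in DKO. Single markers were divided. Msx2, Dlx3, Foxn1, Mki67, Top2a and Cux1 ran like that sum, while Lef1, Hoxc13, Shh and Mt4 ran with the keratins. The part of these cells in the keratin values was not tested.

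Some marker sums also differed between the untreated genotypes. The 12 dermal papilla markers summed to 224 and 188 FPKM in WT and 144 and 140 FPKM in DKO. The 10 basal and outer root sheath markers summed to 431.1 and 521 FPKM in WT and 812 and 892 FPKM in DKO. Of this sum, Krt5 alone was 298 and 372 FPKM in WT and 544 and 578 FPKM in DKO. Krt14 was 71.9 and 84.7 FPKM in WT and 175 and 209 FPKM in DKO. The median log2 difference of the 10 was only 0.20. At an unadjusted p under 0.05 (limma), 3 of them were higher, where 6.82% of all genes were. The 8 immune markers summed to 4.35 and 6.93 FPKM in WT and 12.9 and 14.96 FPKM in DKO, with none at 0 in both libraries of a group and Ptprc, the pan-leukocyte marker, under 0.1 FPKM in all 4. Melanocyte markers were 34.0 and 35.7 FPKM in WT and 41.6 and 42.9 FPKM in DKO, a far smaller step than that of the shaft keratins. The part of these cells in the untreated keratin values was not tested.

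Whether the genotype difference itself differed between 5-aza and untreated cells was tested as an interaction over the 8 libraries. All 9 keratins, Krt40 on 2 reads or fewer, had a lower value of DKO minus WT after 5-aza than without it, where 43.4% of 15812 genes had. The interaction was -2.79 ± 0.81 for Krt33b, -2.45 ± 0.69 for Krt34, -2.43 ± 0.79 for Krt33a and -2.02 ± 0.62 for Krt31 on the log2 scale. It was -0.39 ± 0.11 for Krt39, which lay above WT in untreated DKO and below WT after 5-aza. These 5 had an unadjusted p under 0.05 (0.0098 to 0.0181), where 2.61% of genes did in the lower direction. None passed over all genes (adjusted p = 0.785 to 0.824, limma), where 3 genes (0.019%) did, and voom called none of the 9. For Krt35 the interaction was -0.66 ± 0.34 and for Krt32 -0.69 ± 0.36 (adjusted p = 0.899 each, limma). For none of the keratins tested was the genotype difference thus shown to differ between the treatments. Over all genes, 474 interactions were positive and 413 negative at an unadjusted p under 0.05, and 325 and 529 when scaled to reads of genes in both tables. The untreated and 5-aza tables came from separate processing, so 5-aza treatment and table cannot be told apart in levels. The interaction removes only shifts that both genotypes of a table share. It cannot be told apart from other differences between the tables, such as depth or the share of reads in listed genes. The labels name more than 1 RNA kit, described below, and do not say whether the kit differed between the tables.

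The 6 listed type II hair shaft keratins, the pairing partners, were higher in untreated DKO as well: their summed level was 11.3 and 16.97 FPKM in WT and 100.0 and 153 FPKM in DKO, 8.94-fold. Of the 6, 0 passed over all genes by limma, and their median log2 difference was 2.49. At an unadjusted p under 0.05, 5 were higher, where 6.82% of all genes were. The type II keratin Krt81 was 1.77 and 3.38 FPKM in WT and 25.7 and 34.8 FPKM in DKO. The ratio of summed type I to summed type II shaft keratins was 2.29 and 2.15 in untreated WT and 1.48 and 1.42 in untreated DKO, with no overlap. After 5-aza it was 1.83 and 2.96 in WT and 2.97 and 1.92 in DKO, overlapping fully. The difference between the 2 families was not tested. Krt85, not found under its symbol, was not analysed here, so the type II sum and the ratio leave it out. Both sums use the deposited gene lengths.

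**Figure D4:**
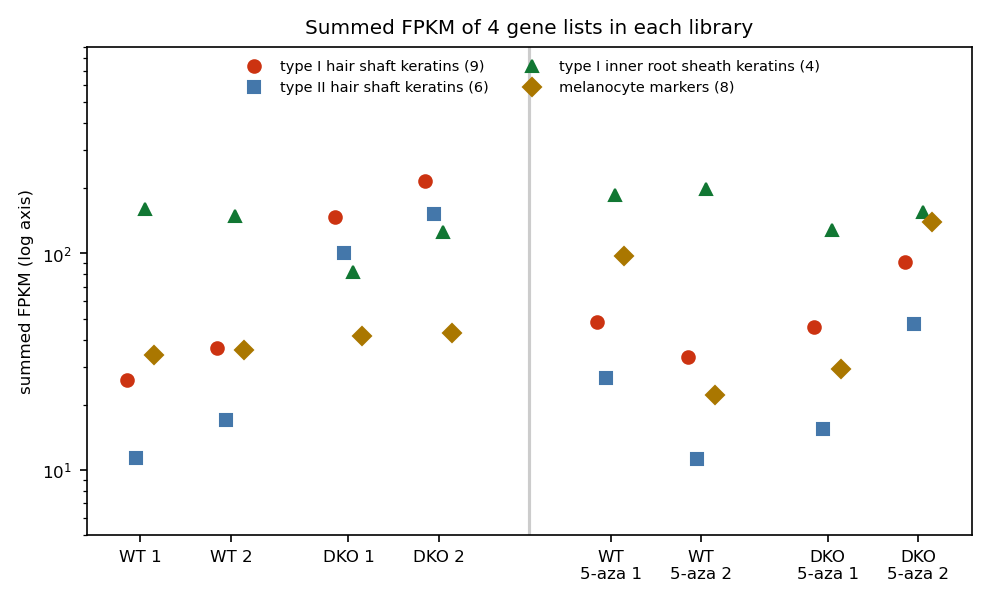
Summed FPKM (log axis) of the type I shaft keratins, type II shaft keratins, type I inner root sheath keratins and melanocyte markers in each library, offset sideways for legibility. Both shaft families are higher in the untreated DKO libraries than in the untreated WT libraries, and after 5-aza both are high in DKO replicate 2, where melanocyte markers are also high.

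Type I keratins of the inner root sheath, encoded in the same cluster, were divided. In untreated DKO 3 of the 4 were lower and 1, Krt27, was higher. The sum of the 4 was 160 and 149 FPKM in untreated WT and 81.9 and 125 FPKM in untreated DKO. Krt28 was 70.4 and 70.7 FPKM in WT and 1.98 and 2.85 FPKM in DKO and fell by 4.40 ± 0.15 on the log2 scale (adjusted p = 0.0249, limma), the 1 gene called in that comparison. Krt27 was 23.8 and 14.4 FPKM in WT and 57.6 and 86.0 FPKM in DKO (log2 difference 1.87 ± 0.31, adjusted p = 0.184, limma). The 4 type II keratins of the inner root sheath summed to 125 and 82.9 FPKM in untreated WT. In untreated DKO they summed to 211 and 298 FPKM, with 3 of them higher and 1 lower. Outside the shaft set, Krt16, a keratin of the outer root sheath and of stressed epidermis, had a log2 difference of 2.89 ± 0.20 (adjusted p = 0.0777, limma), as large as that of Krt33b. This gene was chosen after its value was seen. The difference between these keratins and the shaft set was not tested.

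**Figure D5:**
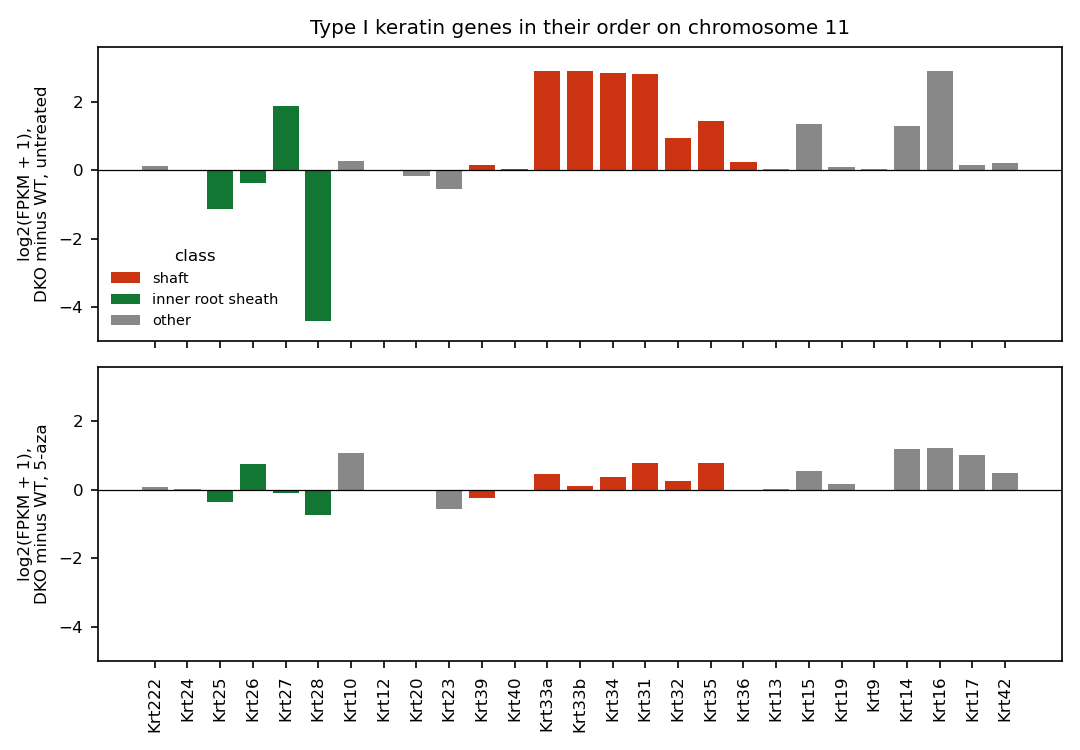
Difference of log2(FPKM + 1), DKO minus WT, of the type I keratin genes in their order along chromosome 11 (untreated above, 5-aza below; bars coloured by class, without error bars). In untreated cells Krt33a, Krt33b, Krt34 and Krt31 form an adjacent run of bars between 2.82 and 2.91, and Krt28 of the inner root sheath stands at -4.40.

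The genes most like the shaft keratins over the 8 libraries, each centred within its table, were Krtap13-1 (Pearson r = 0.999), Krt87 (0.998), Gprc5d (0.997), Krt81 (0.996) and Krt83 (0.995), out of 8694 genes compared with the mean of the 8 tested keratins. The points share library, depth and table scaling, and the correlation is a description. Of the set itself, Krt34 had r = 0.998 and Krt35 r = 0.923 with that mean, of which they are part. Krtap13-1, a keratin-associated protein gene, was 0.760 and 1.35 FPKM in untreated WT and 9.56 and 16.5 FPKM in untreated DKO, then 1.75 and 0.350 FPKM in WT and 0.811 and 3.39 FPKM in DKO after 5-aza. Gprc5d, an orphan receptor gene known from hard keratinised tissue, was 0.972 and 1.37 FPKM in untreated WT and 6.32 and 9.96 FPKM in untreated DKO. Krt81, Krt83 and Krt87 are type II hair keratins with close copies, and how reads were split among them was not tested.

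Other shaft components were higher in untreated DKO by unadjusted tests only. Of 20 tested genes of shaft structure (keratin-associated proteins, Dsg4, Tgm3 and others), 0 passed over all genes by limma. At an unadjusted p under 0.05, 19 were higher, where 6.82% of all genes were, and the median log2 difference was 1.11. Some were very low in WT, such as Krtap6-5 at 0.221 and 0.0739 FPKM in WT and 3.94 and 5.78 FPKM in DKO. Such genes could pass the read filter through the DKO libraries alone, so being tested was tied to being higher. Krtap3-3 was 0.477 and 0.597 FPKM in WT and 3.80 and 3.97 FPKM in DKO. Dsg4, a desmosomal cadherin of the shaft, was 3.31 and 3.73 FPKM in WT and 12.2 and 15.5 FPKM in DKO.

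Of 30 known regulators of matrix and shaft differentiation, 0 passed by limma, 22 had a positive log2 difference in untreated DKO, where 53.8% of all genes had, and the median was 0.21. At an unadjusted p under 0.05, 10 were higher and 2 lower, where 6.82% and 4.63% of all genes were. Foxn1, a transcription factor needed for normal hair shafts, was 3.72 and 3.31 FPKM in WT and 7.08 and 8.10 FPKM in DKO (log2 difference 0.93 ± 0.11, adjusted p = 0.120, limma). Wnt10a, a Wnt ligand of the hair follicle, was 4.69 and 6.01 FPKM in WT and 9.42 and 12.3 FPKM in DKO (log2 difference 0.90 ± 0.17, adjusted p = 0.223, limma). Hoxc13, a transcription factor known to bind hair keratin promoters, was named after its values were seen. It was 9.49 and 15.8 FPKM in untreated WT and 24.4 and 30.7 FPKM in untreated DKO, then 13.0 and 11.6 FPKM in WT and 22.0 and 23.1 FPKM in DKO after 5-aza. Both its DKO libraries lay above both WT libraries in either table (adjusted p = 0.273 and 0.290, limma). Of all genes tested, 24.3% did so in untreated cells and 28.1% after 5-aza. The libraries of Krt31, Krt33a, Krt33b and Krt34 overlapped after 5-aza. The part of Hoxc13 in the keratin levels was not tested.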

How the data were processed

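RNA-seq values of 4 groups with 2 libraries each were analysed. The submitters' processing notes list Trim Galore, STAR, HTSeq, DESeq2, GRCm38 and mm10, with no versions or parameters. Per the labels, both a messenger RNA kit and a ribosome-depleted total RNA kit were used, and neither is tied to a group. The deposited library columns hold FPKM, a unit their headers do not name. In every library 100% of FPKM times length values were whole reads within 0.001. The deposited baseMean is the authors' mean signal after size-factor scaling. Per the file headers, the deposited log2 fold changes set WT over DKO; their sign was reversed here. The deposited test statistic is a score, and the deposited p-value columns come from DESeq2 as the authors ran it. The deposited length (other) is in bases.

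Here, log2(FPKM + 1) was fitted with limma 3.58.1 (R 4.3.3) with a variance trend, within each table, over genes reaching 10 reads (scaled to the median library) in 2 libraries and 15 reads in all. This is the test named for FPKM columns; the count test was not used, since the files hold no counts. P-values are two-sided, adjusted over all genes by Benjamini-Hochberg, with a threshold of 0.05, and the interaction was fitted over 8 libraries. The code was tested on simulated data. Alternatives were other pseudocounts, filters, scalings, variance models, a replicate block, all 8 libraries in 1 fit, and each library left out. All 9 keratins are named. From each gene list at most the 4 tested genes with the smallest p in untreated cells could be named, and the 5 genes most like the keratins over libraries, exceptions being stated. The keratins, gene lists and comparisons were chosen with earlier results of these data known.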

Additional observations from a re-analysis of the deposited data

How the results depend on the processing

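In untreated cells the number of shaft keratins past the threshold was 0 with the chosen limma settings, 5 with voom on recovered reads and 4 with the replicate block. It was 0 with other pseudocounts, filters and scalings, with no variance trend, with all 8 libraries in 1 fit and without each library in turn. The median log2 difference was 1.15 to 1.75 without single libraries (1.15 without DKO replicate 2, 1.75 without DKO replicate 1), and every keratin tested stayed higher. After 5-aza the median was -0.20 to 0.89 without single libraries. Over the same omissions Krt32 ranged from -0.093 to 0.59, Krt33a from -0.30 to 1.24, Krt33b from -0.68 to 0.89, Krt34 from -0.27 to 1.03 and Krt36 from -0.20 to 0.20. Without WT 5-aza replicate 2 the differences of Krt33a, Krt33b, Krt34 and Krt36 were -0.036, -0.44, -0.13 and -0.11. The lowest value of each came without DKO 5-aza replicate 2. Krt36 was -0.0765 with scaling to reads of shared genes and -0.0458 with median-ratio scaling. The interaction's median of -0.69 was -1.29 with a pseudocount of 0.1 and -1.79 with voom. The cause of these shifts was not tested. Over all genes the untreated count of 1 became 7 with pseudocounts of 0.1 and 0.5, 148 with voom, 13 with the replicate block, 113 with all 8 libraries and 0 with no filter, the FPKM filter, no variance trend or scaling to shared genes. The interaction count of 3 was 0 to 2 under the alternatives other than median-ratio scaling. Deviations of same-numbered libraries correlated at 0.033 in untreated cells and -0.59 after 5-aza, and the labels state no pairing, although the untreated numbers go with Xist and Ddx3y levels. The replicate block changed no other call of a shaft keratin. Crossing the numbers after 5-aza, chosen after seeing the data, gave 14 genes and 0 of the shaft keratins. Low depth limits Krt39, Krt40 and, after 5-aza, Krt34, which had 14 reads in WT replicate 2.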
